A study of Mus musculus with 2 samples.

Results

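The 5 proliferation genes *Mki67* (ENSMUSG00000031004), *Top2a* (ENSMUSG00000020914), *Cenpf* (ENSMUSG00000026605), *Ube2c* (ENSMUSG00000001403) and *Pclaf* (ENSMUSG00000040204) were examined in tumor cells and in each normal cell class of mouse lungs with small cell lung cancer (SCLC). They are 5 of the 479 genes of the Xenium panel and were chosen by name for their known function in the cell cycle. At least 1 transcript of these genes was assigned to 28911 of 152915 cells of the RPR2 section and to 211285 of 340609 cells of the CRPR2 section.

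A dividing cell first copies its DNA in S phase and then separates the copies in mitosis, and each step switches on its own genes. *Pclaf* encodes a partner of the replication clamp PCNA and is linked to S phase. *Top2a* encodes the topoisomerase that untangles sister chromatids, *Cenpf* a kinetochore protein, *Ube2c* the ubiquitin-conjugating enzyme that serves the anaphase-promoting complex, and *Mki67* the Ki-67 protein that coats mitotic chromosomes and is the usual proliferation marker in pathology. These 4 genes are called the mitotic genes here, although transcripts of *Mki67* and *Top2a* are also found in S phase. RB1 and its relatives, which include the product of *Rbl2*, hold both groups silent in resting cells, through E2F sites at S-phase genes and through the cell cycle homology region (CHR) at mitotic genes.

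The promoter sequences are shown because *Pclaf* and the mitotic genes differ in the letters searched for these elements. Each run covers the 170 bases before and the first 30 bases from the transcript start in RefSeq (GRCm38.p6), 5′ to 3′ on the strand of the gene, with motif matches on either strand in capitals. The motifs searched were the CHR, spelled TTTGAA. The CCAAT box was searched by the letters of its name. The E2F core was spelled GCGGGAA. In the order printed, the windows are chr7:135716350-135716549 (minus strand), chr11:99024160-99024359 (minus strand), chr1:189688057-189688256 (minus strand), chr2:164769759-164769958 (plus strand) and chr9:65890153-65890352 (plus strand).
Mki67: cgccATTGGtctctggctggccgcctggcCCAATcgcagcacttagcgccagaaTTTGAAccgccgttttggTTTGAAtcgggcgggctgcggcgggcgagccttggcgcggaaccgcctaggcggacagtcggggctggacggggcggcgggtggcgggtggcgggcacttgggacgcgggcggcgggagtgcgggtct
Top2a: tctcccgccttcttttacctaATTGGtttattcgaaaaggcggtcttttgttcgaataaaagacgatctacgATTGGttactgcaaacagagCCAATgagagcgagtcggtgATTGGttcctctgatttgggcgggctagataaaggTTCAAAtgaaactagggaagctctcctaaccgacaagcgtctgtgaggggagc
Cenpf: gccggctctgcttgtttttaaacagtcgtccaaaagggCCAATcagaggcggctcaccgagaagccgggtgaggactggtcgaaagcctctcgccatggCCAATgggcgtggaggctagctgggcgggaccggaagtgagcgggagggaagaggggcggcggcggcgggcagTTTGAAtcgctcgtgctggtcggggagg
Ube2c: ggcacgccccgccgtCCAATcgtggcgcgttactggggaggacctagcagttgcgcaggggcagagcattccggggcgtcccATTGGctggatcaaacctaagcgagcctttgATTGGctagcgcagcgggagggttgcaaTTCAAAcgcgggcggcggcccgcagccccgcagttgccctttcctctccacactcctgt
Pclaf: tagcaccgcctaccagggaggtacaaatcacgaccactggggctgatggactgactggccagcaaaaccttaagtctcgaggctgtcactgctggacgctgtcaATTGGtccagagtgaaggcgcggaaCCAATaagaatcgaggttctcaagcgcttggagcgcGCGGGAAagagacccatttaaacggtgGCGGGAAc

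All 5 genes matched an entry of the promoter table. Within 250 bases before and 50 bases after the start, CHR letters were found at 2 places for *Mki67*, 2 for *Top2a*, 1 for *Cenpf* and 1 for *Ube2c*, and at none for *Pclaf*. E2F core letters were found at 2 places for *Pclaf*, and at none for the mitotic genes. Spellings that differ from the E2F core by a letter were not searched. CCAAT letters were found for all 5 genes, at 3 places for *Mki67*, 6 for *Top2a*, 2 for *Cenpf*, 6 for *Ube2c* and 2 for *Pclaf*. No match overlapped a match of another motif, and 1 pair of CCAAT matches of *Ube2c* on opposite strands overlapped. Matches more than 170 bases before the start lie outside the printed runs. Of 32544 promoters of the same length, 17.8% held the CHR letters, 37.4% the CCAAT letters, 4.63% the E2F core letters, and 6.92% both CHR and CCAAT letters. A match is a run of letters and not a measured binding site.

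Xenium In Situ is an imaging assay that counts single transcripts of a chosen gene panel inside tissue. For each genotype, 1 section of a formalin-fixed, paraffin-embedded lung was analyzed. In RPR2 mice, *Rb1*, *Trp53* and *Rbl2* were deleted from floxed alleles by adenoviral Cre instilled into the trachea at 10 weeks of age, and CRPR2 mice carried in addition a germline KO of *Cracd*, an actin regulator. C57BL/6 is the strain listed for laboratory animals in the study, and its methods give no strain for the floxed mice. Tumors were analyzed 6 months after Cre in the study. The virus is called Ad-CMV-Cre, for the broadly active CMV promoter, in 1 place of the study, and Ad-Cracd-Cre in another and in the labels, so the promoter that drove Cre is not settled here. *Cracd* was deleted in every cell of CRPR2 mice. Genotype, mouse, tumor load and slide area cannot be told apart with 1 section of each, no p-value was computed, and all intervals are 95% and cover counting error only.

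The cells had a median of 100 transcripts in RPR2 and 101 in CRPR2, with 16313950 and 37348565 transcripts in all, and 1903 and 2236 cells with fewer than 20 were left out. Cells were grouped into 33 clusters without the proliferation genes and 8 other cell cycle genes, so that the classes did not rest on the values reported here. Of the clusters, 4 were NE-like by their neuroendocrine (NE) markers (13962 RPR2 and 171652 CRPR2 cells), and normal cells formed T cell-like, macrophage-like, AT2-like, secretory-like, ciliated-like, endothelial-like, fibroblast-like and mural-like classes. The 13 NE markers on the panel summed to 211720 CPM (RPR2) and 202451 CPM (CRPR2) in NE-like cells, and to 975 to 8724 CPM in the normal classes. Of the 13, 12 (all but *Neurod1*) were at least 2-fold higher in NE-like than in all other cells of either section. The same markers were used to name the classes, so these values describe the naming and are no separate support for it. The T cell-like cluster was also led by the B cell gene *Ms4a1* and the granulocyte genes *Prg2* and *Mpo*. The secretory-like cluster also had *Krt5*, the only basal cell marker used here, among its leading genes. Of the remaining clusters, 6 held many NE transcripts beside genes of other cells and stayed unnamed, as did 8 others. The sections shared 8 cell barcodes, and these were kept as separate cells.

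All 5 genes were highest in NE-like cells, in both sections. Levels are CPM, a count per 1000000 transcripts of all genes, pooled within a class, and they are compared for 1 gene across cells, never between genes, since probes differ in efficiency. In NE-like cells, RPR2 had 9837 CPM of *Mki67* (interval, 9680 to 9996) and CRPR2 had 12359 CPM (12308 to 12411). *Top2a* was at 6911 and 8548 CPM, *Cenpf* at 3744 and 5082 CPM, *Ube2c* at 2528 and 2948 CPM, and *Pclaf* at 6613 and 6875 CPM, in RPR2 and CRPR2. The 20 negative control probes averaged 2.21 and 2.27 CPM each in the same cells, far below any of these genes. Against all other cells of the section, 5 of 5 genes were at least 2-fold higher in NE-like cells of both RPR2 and CRPR2, where 20.0% and 15.2% of all 479 genes were. NE-like cells were 9.13% of RPR2 cells and held 64.5% of the *Mki67* transcripts, but 38.0% of the *Pclaf* transcripts. In CRPR2 they were 50.4% of cells and held 72.0% and 67.8%.

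**Figure D1:**
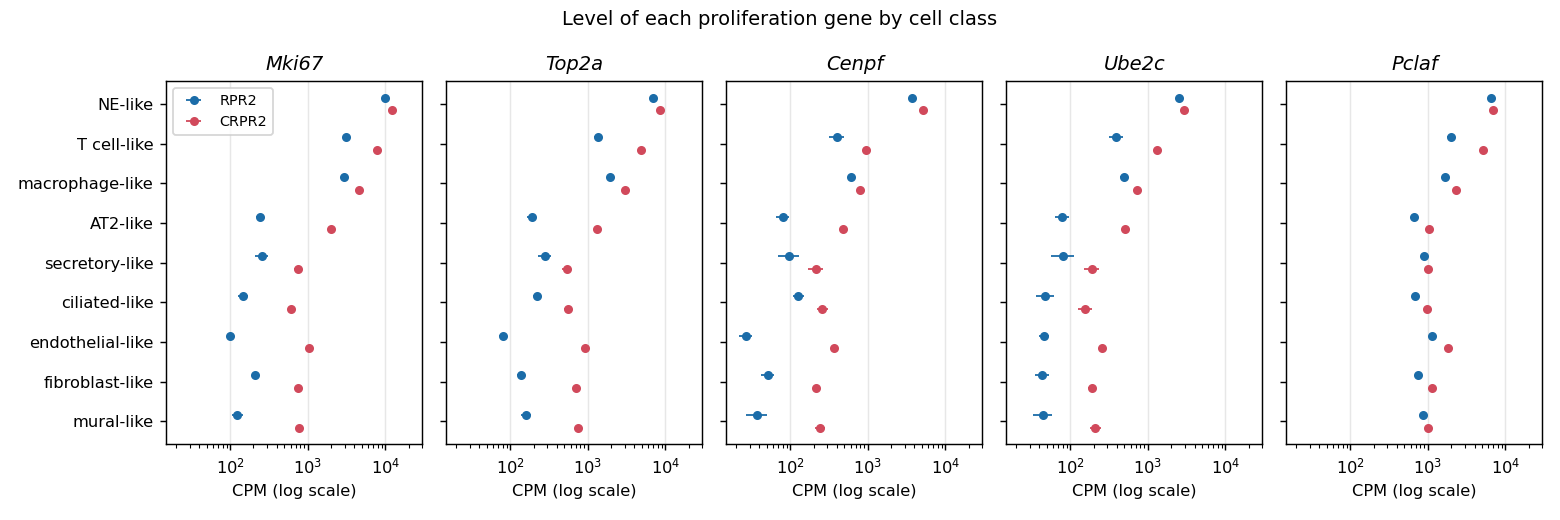
Level of each proliferation gene in CPM (log axis) by cell class, with RPR2 in blue, CRPR2 in red and bars for the 95% counting interval. NE-like cells stand highest in all 5 panels, from 2528 CPM for *Ube2c* in RPR2 to 12359 CPM for *Mki67* in CRPR2, and the classes spread over a narrower range for *Pclaf* than for the mitotic genes.

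The mitotic genes were higher in NE-like cells of CRPR2 than of RPR2, by 1.17-fold to 1.36-fold, while *Pclaf* was nearly level. On the log2 scale, *Cenpf* differed by 0.44 (0.40 to 0.48), *Mki67* by 0.33 (0.31 to 0.35), *Top2a* by 0.31 (0.28 to 0.34) and *Ube2c* by 0.22 (0.17 to 0.27). *Pclaf* differed by 0.06 (0.03 to 0.09). Of the 5 genes, 3 (*Mki67*, *Top2a* and *Cenpf*) were at least 1.2-fold higher in CRPR2, beside 28.2% of all 479 genes, so a difference of this size was common on the panel. The median log2 difference was 0.31 for the 5 genes and 0.03 for all genes. *Cenpf* stood 89th of 479 by this ratio, *Mki67* 115th and *Pclaf* 230th. Of the 13 NE markers, 1 was at least 1.2-fold higher in CRPR2, and their sum was lower by a log2 difference of -0.06.

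*Mki67*, *Top2a* and *Cenpf* were higher in CRPR2 in each of the 4 NE-like clusters, and *Ube2c* in 3 of them beyond its interval (cluster 3, log2 0.10, -0.02 to 0.21). The order of the clusters by *Mki67* was the same in both sections, from cluster 2 (10947 and 14475 CPM in RPR2 and CRPR2), led by the secretory granule genes *Scg2* and *Chgb*, to cluster 6 (7035 and 9349 CPM), which also held the urothelial gene *Upk3a* among its leading genes. The log2 difference of CRPR2 over RPR2 lay between 0.34 and 0.41 for *Mki67* within the clusters, and between 0.02 and 0.16 for *Pclaf*. *Pclaf* did not follow the order of *Mki67*. In CRPR2, cluster 1 had more *Pclaf* than cluster 2 (8046 CPM, interval 7965 to 8127, against 7380 CPM, 7307 to 7455) with less *Mki67* (12946 CPM). In RPR2, the *Pclaf* levels of clusters 1 and 2 (7179 and 7272 CPM) did not differ beyond their intervals.

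Among the unnamed clusters with NE transcripts, *Mki67* ranged from 1615 CPM (cluster 23, with endothelial genes) to 8645 CPM (cluster 24, with macrophage genes) in RPR2. Cluster 4 was led by mucous and urothelial genes such as *Muc2* and *Upk3a* and had fewer NE transcripts, at 64226 and 59228 CPM in the sections. *Mki67* there was at 3712 CPM (RPR2) and 7387 CPM (CRPR2), a log2 difference of 0.99 (0.87 to 1.12), larger than in any NE-like cluster. Clusters 23 (log2 1.63) and 27, with AT2 genes (1.41), differed more, with *Pclaf* at 0.86 and 1.21, and their NE markers were higher in CRPR2 by 1.50 and 0.29. In cluster 4, *Top2a* differed by 0.97, *Cenpf* by 0.66, *Ube2c* by 0.67 and *Pclaf* by 0.49. The share of its cells with a mitotic gene was 26.8% in RPR2 and 40.8% in CRPR2. In cluster 24, no mitotic gene differed between sections beyond its interval, and *Pclaf* was lower in CRPR2 by a log2 difference of -0.22.

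To compare shares of cells, each cell was thinned to 50 transcripts, which left out 1506 RPR2 and 17007 CRPR2 NE-like cells with fewer (15856 and 34059 over all classes). At this depth, 31.8% of NE-like cells of RPR2 (31.0% to 32.6%) and 38.5% of CRPR2 (38.3% to 38.8%) had an *Mki67* transcript, and 45.1% and 54.3% without thinning. At least 1 mitotic gene was seen in 49.5% and 58.5% of NE-like cells (62.4% and 72.5% without thinning), and *Pclaf* in 25.1% and 26.7%. The most transcripts of *Mki67* in a single NE-like cell were 25 in RPR2 and 32 in CRPR2. Median transcripts per NE-like cell were 102 and 97.

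Of the normal classes, T cell-like and macrophage-like cells came next. *Mki67* was at 3113 CPM in T cell-like and 2964 CPM in macrophage-like cells of RPR2, which did not differ beyond their intervals, and at 7717 and 4555 CPM in CRPR2, which did. NE-like cells exceeded T cell-like cells 3.16-fold in RPR2 and 1.60-fold in CRPR2 for *Mki67*, but 9.36-fold and 5.32-fold for *Cenpf*. The *Mki67* difference in RPR2 was log2 1.66, and 2.29 when cells were gated on marker transcripts. A mitotic gene was seen after thinning in 15.4% of T cell-like cells of RPR2 and 28.0% of CRPR2 (19.4% and 34.4% without thinning), and in 11.3% and 21.0% of macrophage-like cells (15.5% and 32.2%). NE transcripts were scarce in both classes, at 2089 and 4278 CPM in T cell-like and 1553 and 3924 CPM in macrophage-like cells. T cell-like cells held 1.49 and 1.80 *Mki67* transcripts per NE marker transcript, and macrophage-like cells 1.91 and 1.16. The values in NE-like cells were 0.0465 and 0.0610. The classes were separated by these NE markers, so a lower value in NE-like cells is partly set by the naming. Where the *Mki67* transcripts of the 2 normal classes came from was not tested. Median depth was 78 and 79 transcripts in T cell-like and 101 and 121 in macrophage-like cells.

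The other 6 normal classes had little of the mitotic genes in RPR2. *Mki67* was at 101 CPM in endothelial-like, 124 in mural-like, 147 in ciliated-like, 209 in fibroblast-like, 241 in AT2-like and 257 CPM in secretory-like cells, and of neighbors in this order only ciliated-like and fibroblast-like cells differed beyond their intervals. In CRPR2 the order was another, with AT2-like cells, the surfactant-making and self-renewing cells of the alveoli, highest at 1998 CPM, then endothelial-like (1041), mural-like (776), fibroblast-like (758), secretory-like (752) and ciliated-like cells (614 CPM). Mural-like, fibroblast-like and secretory-like cells did not differ from each other beyond their intervals, nor did secretory-like from ciliated-like cells.

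Ciliated cells have left the cell cycle and were taken as a reference for low levels, although they held the most NE transcripts of the normal classes (4435 and 8724 CPM). Other clusters would set another reference level. In RPR2 and CRPR2, *Mki67* was at 147 and 614 CPM in ciliated-like cells. It was at 78 and 151 CPM in unnamed cluster 29, led by muscle genes such as *Tnnc1* and *Myoz2*. Unnamed cluster 14, with the AT1 genes *Ager* and *Aqp5*, had 209 and 1521 CPM. A mitotic gene was seen after thinning in 1.82% of ciliated-like cells of RPR2 and 5.98% of CRPR2 (3.52% and 10.1% without thinning; median depth, 101 and 106 transcripts). In RPR2, no share of the 5 other classes exceeded that level beyond the intervals, from 1.00% (endothelial-like) to 2.07% (secretory-like), and from 1.95% to 4.97% without thinning. In CRPR2, AT2-like cells (10.8%, 10.2% to 11.5%) stood above ciliated-like cells (5.32% to 6.70%), while endothelial-like (6.59%), fibroblast-like (6.73%), mural-like (6.31%) and secretory-like cells (5.26%) had intervals that overlapped with theirs. The shares of the latter 4 classes were thus not above that of ciliated-like cells beyond the intervals. Endothelial-like cells of CRPR2 nevertheless had more *Mki67* (1041 CPM, 995 to 1088) than ciliated-like cells (614 CPM, 553 to 680), and of their cells with 0 NE transcripts 1.87% had at least 3 of the 5 genes without thinning, against 0.748%. Whether the transcripts in these classes were the cells' own was not tested. Without thinning, the shares in CRPR2 were 19.1% in AT2-like, 12.2% in fibroblast-like, 11.3% in endothelial-like, 10.8% in mural-like and 9.29% in secretory-like cells. AT2-like cells were the deepest, with a median of 135 transcripts.

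The mitotic genes were higher in CRPR2 than in RPR2 in all 8 normal classes, and by more than in NE-like cells in most. *Mki67* was 10.3-fold higher in endothelial-like cells (log2 3.37, 3.21 to 3.53), 8.29-fold in AT2-like, 6.27-fold in mural-like, 4.19-fold in ciliated-like, 3.62-fold in fibroblast-like, 2.93-fold in secretory-like, 2.48-fold in T cell-like and 1.54-fold in macrophage-like cells. *Top2a* and *Cenpf* were 11.6-fold and 13.6-fold higher in endothelial-like cells. *Pclaf* differed less, by log2 0.69 in endothelial-like, 0.66 in AT2-like and 0.61 in fibroblast-like cells, and its interval lay above 0 in 7 of 8 classes (secretory-like, 0.17, -0.03 to 0.37). In T cell-like cells *Pclaf* was 2.60-fold higher (log2 1.38), about as much as *Mki67* (1.31). In macrophage-like cells *Pclaf* (log2 0.49, 0.40 to 0.58) was also within the range of the mitotic genes (0.38 for *Cenpf* to 0.67 for *Top2a*).

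Counts of genes past a fold were made after adding 10 CPM to each level, which lowers the folds of scarce genes. At least 2-fold higher levels in CRPR2 were seen for 4 of 5 genes in endothelial-like (16.9% of all genes), AT2-like (13.4%), fibroblast-like (13.8%) and mural-like cells (9.39%), each time without *Pclaf*. The count was 3 of 5 in ciliated-like (15.2% of all genes) and secretory-like cells (19.0%), 5 of 5 in T cell-like cells (9.60%) and 0 of 5 in macrophage-like cells (6.68%). *Cenpf* in ciliated-like cells was 2.04-fold higher without the addition and is not in the count of 3. With other ways of forming the classes, the mitotic differences stayed above 0 in all classes. They were least settled in secretory-like cells, where *Mki67* was at log2 1.55 here, 3.35 at a coarser clustering and 3.45 with a gate on marker transcripts per cell. *Mki67* ranked 4th of 479 genes by this ratio in endothelial-like cells and 2nd in AT2-like and mural-like cells.

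Summed NE transcripts moved the same way. The summed NE markers were higher in CRPR2 by log2 1.72 in endothelial-like, 1.37 in AT2-like, 1.42 in mural-like, 1.35 in fibroblast-like, 1.34 in macrophage-like, 1.03 in T cell-like, 0.98 in ciliated-like and 0.44 in secretory-like cells. Of the 13 NE markers, 10 were at least 2-fold higher in endothelial-like, 10 in ciliated-like and 9 in AT2-like cells. The count was 8 in fibroblast-like, 8 in mural-like, 7 in macrophage-like, 6 in T cell-like and 0 in secretory-like cells. The shares of all genes, given above by class, were 6.68% to 19.0%. Of the 5 proliferation genes, 0 passed this fold in macrophage-like and 3 in secretory-like cells. In cells with 0 NE transcripts, the *Mki67* differences were about as large, at log2 3.35 in endothelial-like (33118 and 12469 cells), 3.01 in AT2-like, 2.67 in mural-like, 2.08 in ciliated-like and 1.32 in T cell-like cells. The interval of *Pclaf* lay above 0 in 6 of 8 classes there. Its difference was smaller in ciliated-like (0.25), mural-like (0.14) and secretory-like cells (0.09). It was not smaller in T cell-like (1.39) and macrophage-like cells (0.53). In ciliated-like cells with 0 NE transcripts, the other mitotic genes differed less than in all ciliated-like cells (*Top2a*, log2 1.05 and 1.33, *Cenpf*, 0.72 and 1.03, *Ube2c*, 1.32 and 1.72). Cells with 0 NE transcripts can still hold a stray transcript of another gene, and the part of such transcripts in these differences was not tested further.

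**Figure D2:**
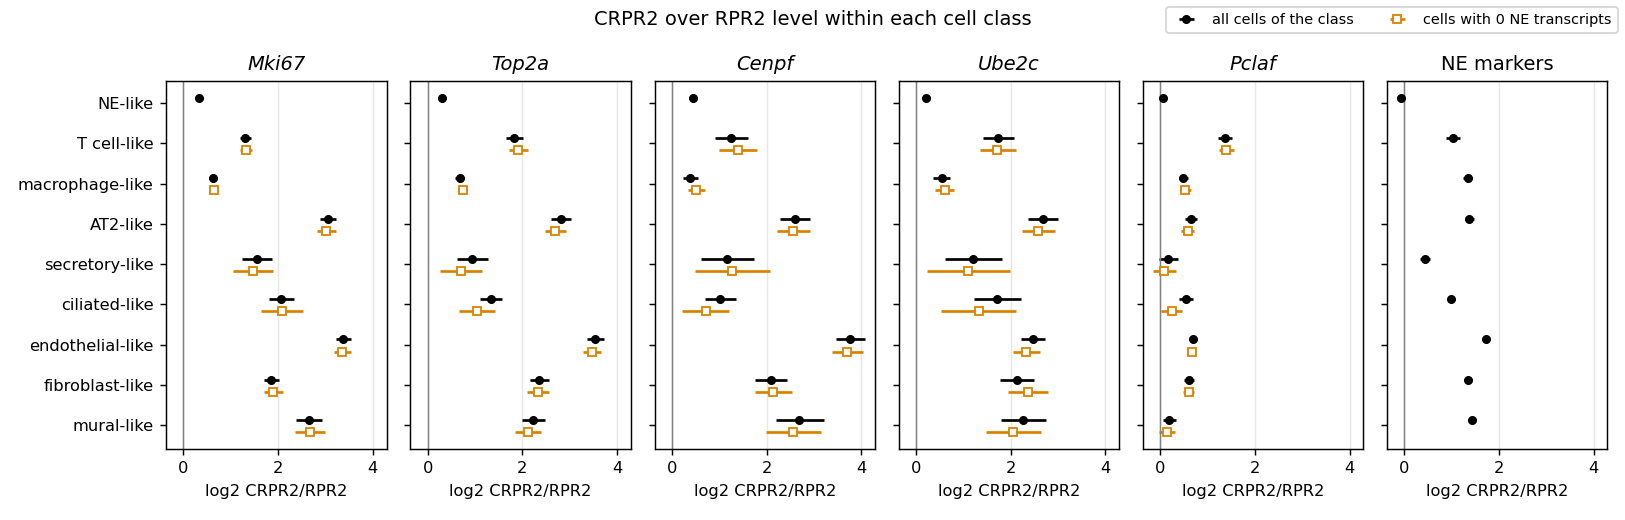
Log2 of the CRPR2 over the RPR2 level in each cell class, for the 5 genes and for the 13 summed NE markers, with 95% counting intervals. Black points show all cells of a class and open squares those with 0 NE transcripts, and endothelial-like cells reach 3.77 for *Cenpf* while *Pclaf* stays at or below 0.69 outside T cell-like cells.

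The genes occurred together in the same cells. After thinning, 41.8% of NE-like cells of RPR2 had none of the 5 genes, where the product of the single shares gives 30.1%, and 3.23% had 4 and 0.747% all 5, where the product gives 0.605% and 0.0250%. In CRPR2, 33.2% had none (product, 23.3%), 4.23% had 4 (1.14%) and 0.819% had all 5 (0.0583%). A cell with exactly 1 gene was less frequent than the product in both sections, at 29.0% against 41.9% and 31.6% against 40.7%. Cells with none and cells with 3 or more genes were thus both more frequent than the product.

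**Figure D3:**
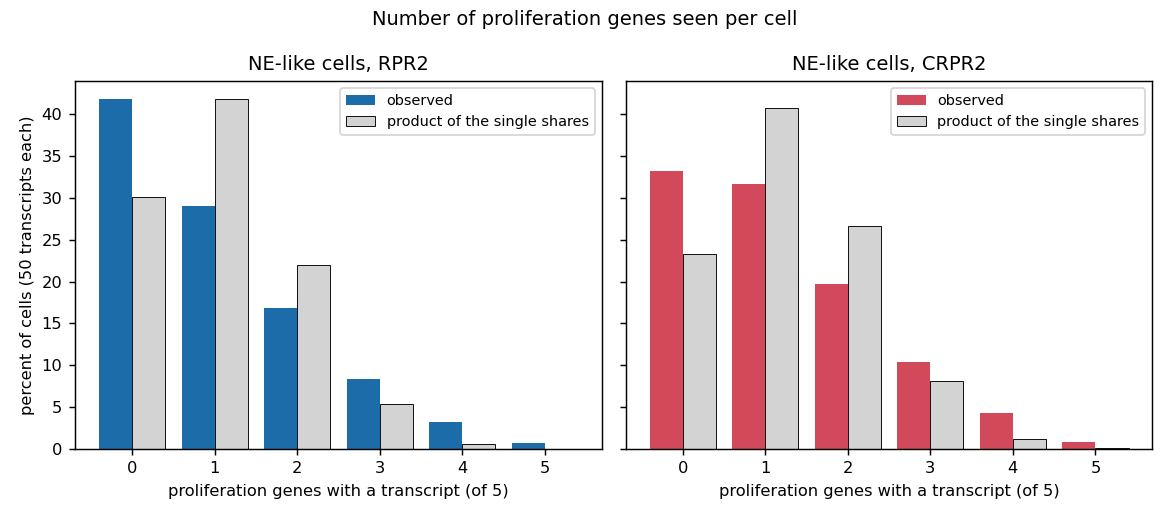
Percent of NE-like cells, thinned to 50 transcripts, by the number of proliferation genes seen, with colored bars for the observed share and grey bars for the product of the single shares. Cells with none and with 3 or more genes exceed the grey bars in RPR2 (left) and CRPR2 (right), at 41.8% and 33.2% for none.

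*Cenpf* and *Ube2c*, which both act late in the cycle, had the highest ratio to the product of all pairs, although *Mki67* and *Top2a*, which are more frequent, were together in more cells (1531 in RPR2 and 24159 in CRPR2). In NE-like cells of RPR2, 485 cells held both where the product of the shares gives 157, a ratio of 3.09 (2.82 to 3.38), and in CRPR2, 7505 held both against 2975, a ratio of 2.52 (2.47 to 2.58). The odds of *Ube2c* were 6.03-fold and 4.79-fold higher in cells with *Cenpf* than without. For the 6 pairs of mitotic genes, the odds ratio had a median of 3.63 in RPR2 (2.79 to 6.03) and 3.04 in CRPR2 (2.35 to 4.79). For the 4 pairs with *Pclaf*, it had a median of 1.83 (1.63 to 2.35) and 1.48 (1.33 to 1.74). *Pclaf* went most with *Mki67* (2.35 and 1.74) and least with *Cenpf* (1.63 and 1.33). These are descriptions over the cells of 1 section each. The ratio to the product has a lower ceiling where the single shares are high, so it is not set against that of sparser classes.

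In T cell-like cells, the pairs with *Pclaf* came close to the mitotic pairs. The odds ratio of the pairs with *Pclaf* was 5.53 to 8.50 in CRPR2, beside 7.16 to 12.8 for the mitotic pairs. *Top2a* and *Pclaf* were seen together in 360 cells against 122 from the product, and 46.9% of T cell-like cells with *Top2a* had *Pclaf*, against 33.7% in NE-like cells of CRPR2. In RPR2 the pairs of T cell-like cells rested on 8 to 45 cells. Macrophage-like cells of CRPR2 had odds ratios of 7.15 to 9.53 for mitotic pairs and of 3.75 to 8.32 for pairs with *Pclaf*.

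In endothelial-like cells, the mitotic genes occurred together and *Pclaf* did so far less. *Mki67* and *Top2a* were seen together in 160 cells of CRPR2 against 15.9 from the product (10.1-fold, 8.59 to 11.8) and in 16 cells of RPR2 against 0.507 (31.6-fold). *Mki67* and *Pclaf* were seen together in 80 cells of CRPR2 against 41.6 (1.92-fold, 1.52 to 2.39), and in 10 cells of RPR2 against 8.14 (1.23-fold, 0.589 to 2.26), which is within counting error of the product. The ratio to the product has a lower ceiling for the more frequent *Pclaf*. By odds ratio, mitotic pairs of endothelial-like cells stood at 15.0 to 31.1 in CRPR2 and pairs with *Pclaf* at 1.39 to 2.51. In RPR2 these were 22.8 to 53.8 and 1.25 to 3.21, and the pairs rested on 3 to 16 cells. Ciliated-like cells, with few cells, also showed mitotic genes together, with *Mki67* and *Top2a* in 24 CRPR2 cells against 3.26.

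**Figure D4:**
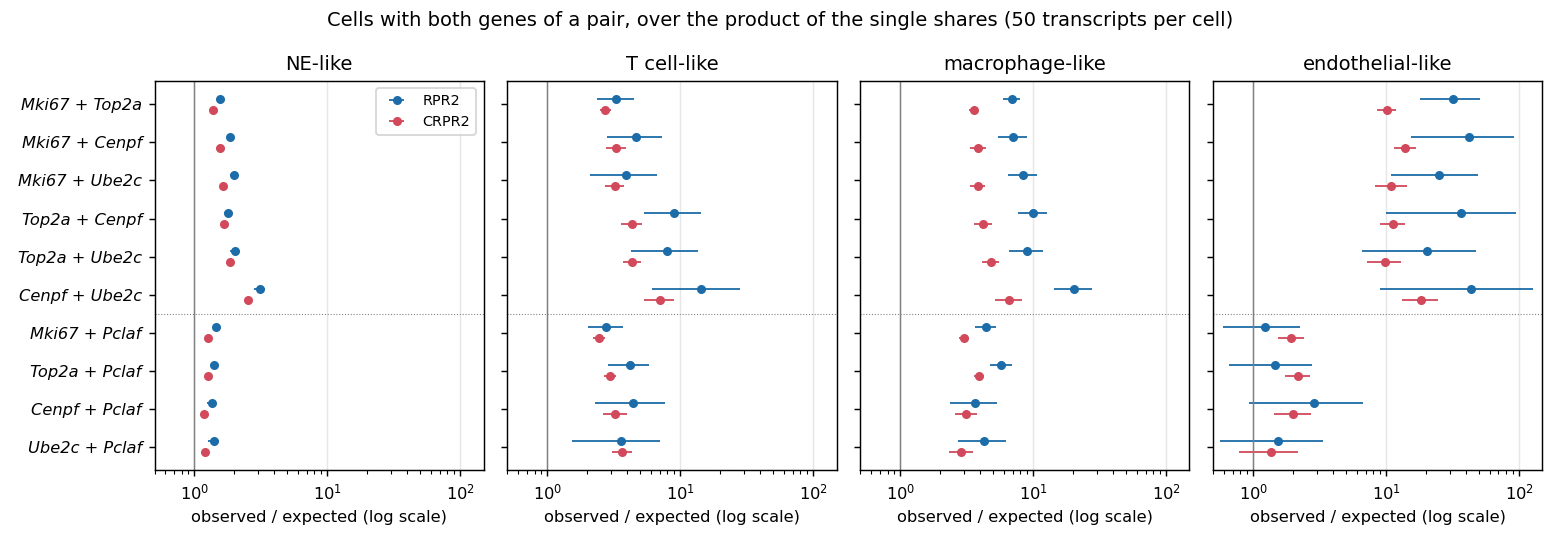
Cells with both genes of a pair over the product of the single shares (log axis, 1 marks the product), in 4 cell classes after thinning to 50 transcripts, with RPR2 in blue, CRPR2 in red and 95% counting intervals. Mitotic pairs are above the dotted line and pairs with *Pclaf* below it, and in endothelial-like cells the mitotic pairs stand near or above 10 while those with *Pclaf* stay between 1.23 and 2.86.

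*Pclaf* stood far higher against the mitotic genes in 6 normal classes of RPR2 than in NE-like cells. The ratio of *Pclaf* to the summed mitotic genes was 0.287 in NE-like cells of RPR2 and 0.238 in CRPR2, and close to this in macrophage-like cells (0.279 and 0.256). In T cell-like cells the ratio was above that of NE-like cells beyond the intervals, at 0.373 and 0.345. It was 4.41 in endothelial-like, 2.37 in mural-like, 1.69 in fibroblast-like, 1.26 in secretory-like, 1.25 in ciliated-like and 1.11 in AT2-like cells of RPR2. In CRPR2 it was lower in each of these, at 0.694 in endothelial-like and 0.239 in AT2-like cells, the latter at the ratio of NE-like cells. The difference between endothelial-like and NE-like cells was log2 3.94 in RPR2 and 1.55 in CRPR2. In RPR2, the mitotic sum was 589 CPM in AT2-like and 712 CPM in secretory-like cells, against 23021 CPM in NE-like cells. In cells of these 2 classes with 0 mitotic and 0 NE transcripts, *Pclaf* was still at 605 and 879 CPM. Whether a high ratio marks cells in S phase was not tested, nor was the source of this *Pclaf*.

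Single cells were counted as well. Of the cells with a *Pclaf* transcript after thinning, 98.7% (98.1% to 99.2%) had no mitotic transcript among endothelial-like cells of RPR2 and 87.5% in CRPR2. Few cells of this class had a mitotic transcript at all, 1.00% in RPR2 and 6.59% in CRPR2. *Pclaf* was seen in 7.16% of endothelial-like cells with a mitotic gene and 5.44% of those without in RPR2, and in 15.6% and 7.73% in CRPR2. The share of *Pclaf*-positive cells without a mitotic transcript was 34.8% (33.1% to 36.5%) and 31.0% (30.6% to 31.5%) in NE-like cells, 59.6% and 39.1% in T cell-like cells and 51.9% and 40.8% in macrophage-like cells. In the other 5 classes it lay between 93.6% (AT2-like) and 97.1% (mural-like) in RPR2. In NE-like cells, *Pclaf* was seen in 33.1% of cells with a mitotic gene and 17.3% of those without in RPR2, and in 31.5% and 19.9% in CRPR2. These shares fall with depth, since a deeper count finds more mitotic transcripts (19.6% and 16.5% of *Pclaf*-positive NE-like cells without thinning).

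**Figure D5:**
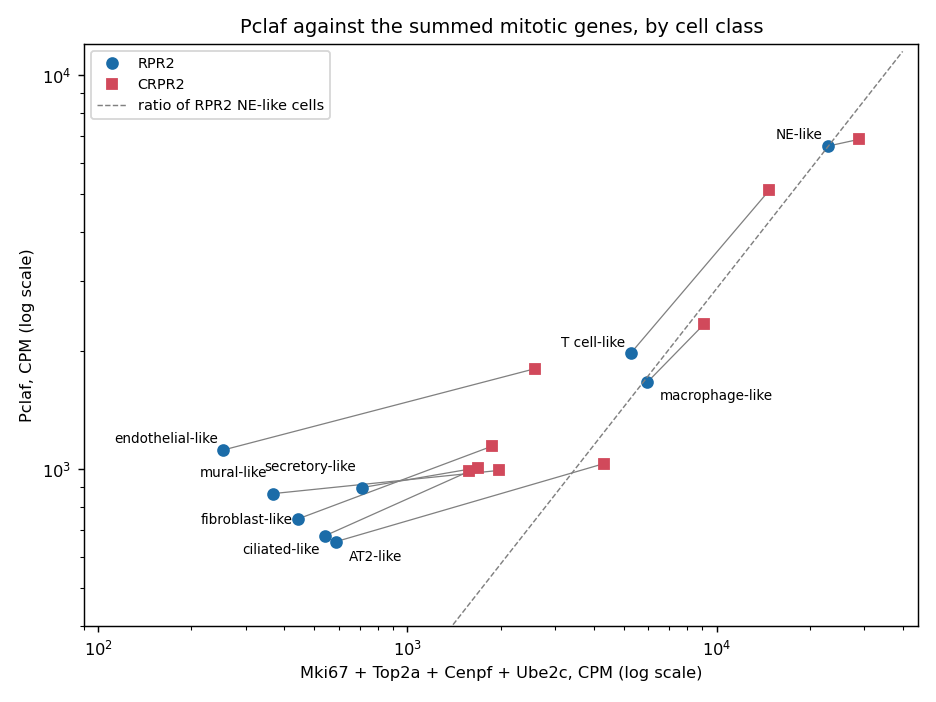
*Pclaf* against the sum of *Mki67*, *Top2a*, *Cenpf* and *Ube2c* in CPM (both axes log), with a line from RPR2 (circle) to CRPR2 (square) for each class and a dashed line at the RPR2 NE-like ratio of 0.287. NE-like and macrophage-like cells lie near the dashed line and T cell-like cells somewhat above it. The other classes lie further above it in RPR2, with endothelial-like cells highest at 1119 CPM of *Pclaf*.

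*Pclaf* without mitotic genes also differed between normal cells. In cells with 0 mitotic and 0 NE transcripts, *Pclaf* was at 1107 CPM (1072 to 1143) in endothelial-like cells of RPR2 and at 633 CPM (579 to 691) in ciliated-like cells, and at 1597 and 690 CPM in CRPR2. T cell-like cells had 1148 and 1585 CPM, and AT2-like (605 and 679 CPM) and macrophage-like cells (581 and 682 CPM) stood near ciliated-like cells. The clusters of the vessel wall differed too. In RPR2 it was at 1288 CPM in cluster 5, a capillary-type endothelial cluster led by *Sox17* and *Gpihbp1*. It was at 821 CPM in cluster 11, led by *Vwf*, and at 511 CPM in cluster 31, led by the lymphatic genes *Mmrn1* and *Prox1*. Of the mural-like clusters, cluster 22 with the pericyte gene *Higd1b* had 1336 CPM, and the smooth muscle clusters 26 and 28, with *Myh11* and *Tagln*, had 409 and 438 CPM. Cluster 21, also endothelial-like and led by *Fibin* and *Prx*, had 919 CPM of *Pclaf* in RPR2 over all its cells. Counted the same way, clusters 5 and 11 had 1297 and 838 CPM. The control probes averaged at most 4.42 CPM in any class. The highest single control probe reached 29.3 CPM in ciliated-like and 29.0 CPM in fibroblast-like cells of RPR2. The mitotic gene *Ube2c* was at 47.2 and 43.5 CPM in these cells, not far above. In ciliated-like cells, 3.54% had *Pclaf* after thinning in RPR2 and 4.98% in CRPR2, and the shares of endothelial-like cells, 5.46% (5.22% to 5.71%) and 8.25% (7.82% to 8.70%), were above these.

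The balance among the mitotic genes also varied between classes. *Cenpf* transcripts per *Mki67* transcript were 0.381 and 0.411 in NE-like cells of RPR2 and CRPR2, 0.129 and 0.124 in T cell-like and 0.204 and 0.174 in macrophage-like cells, with intervals that did not overlap with those of NE-like cells. *Ube2c* per *Mki67* was 0.257 and 0.239 in NE-like, 0.126 and 0.169 in T cell-like and 0.166 and 0.157 in macrophage-like cells. *Top2a* per *Mki67* was 0.703 and 0.692 in NE-like, 0.645 and 0.670 in macrophage-like, and 0.439 (0.382 to 0.505) and 0.629 (0.598 to 0.660) in T cell-like cells. AT2-like cells of CRPR2 had 0.243 *Cenpf* per *Mki67* (0.223 to 0.265). Not all classes lay below NE-like cells. In RPR2, *Cenpf* per *Mki67* was 0.332 (0.261 to 0.420) in AT2-like and 0.372 (0.254 to 0.534) in secretory-like cells, overlapping with NE-like cells. *Top2a* per *Mki67* was 1.08 (0.829 to 1.41) in secretory-like cells of RPR2, above NE-like cells. Ciliated-like cells of RPR2 had 127 CPM of *Cenpf* and 147 CPM of *Mki67*, against 3744 and 9837 CPM in NE-like cells.

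Cells with at least 3 of the 5 genes and 0 NE transcripts numbered 574 in RPR2 and 2939 in CRPR2 without thinning. Of these, 257 and 892 were macrophage-like, 50 and 421 T cell-like, 32 and 273 AT2-like and 26 and 233 endothelial-like. Fibroblast-like cells were 29 and 121, mural-like 6 and 62, ciliated-like 12 and 23 and secretory-like 7 and 26. They made up 4.57% and 8.64% of macrophage-like cells with 0 NE transcripts, 2.22% and 8.79% of such T cell-like and 0.363% and 3.83% of such AT2-like cells. These shares were not adjusted for depth. Median transcripts per cell of the whole class were 101 and 121 in macrophage-like, 78 and 79 in T cell-like and 116 and 135 in AT2-like cells. Endothelial-like cells with 0 NE transcripts numbered 33118 and 12469, and fibroblast-like ones 16400 and 8110. The unnamed clusters held 10 and 374 (those with NE transcripts) and 145 and 512 (the others).

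Of the other cell cycle genes on a list chosen by function, 8 were on the panel. *Ezh2*, *E2f1*, *Stmn1* and *Rb1* were at least 2-fold higher in NE-like than in all other cells in both sections, 4 of 8 beside 20.0% and 15.2% of all genes. *Ezh2*, the histone methyltransferase of Polycomb, was at 9278 CPM in NE-like cells of RPR2 and 11747 CPM in CRPR2, and at 2927 and 5956 CPM in T cell-like and 661 and 1460 CPM in endothelial-like cells. *E2f1*, the S-phase transcription factor, was at 4908 and 5772 CPM in NE-like and at 2182 and 2769 CPM in macrophage-like cells. *Stmn1*, which destabilizes microtubules, was at 25815 and 30059 CPM in NE-like cells. In NE-like cells, *Ezh2* and the cell cycle inhibitor *Cdkn1a* were at least 1.2-fold higher in CRPR2 (log2 0.34 and 0.48), 2 of 8 beside 28.2% of all genes. *Mdm2* and *Bax* were lower there by log2 differences of -0.16 and -0.08, opposite in direction to *Cdkn1a*.

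The deleted genes *Trp53* and *Rb1* were still counted in NE-like cells, *Trp53* at 714 and 825 CPM and *Rb1* at 10824 and 12220 CPM. Where their probes lie relative to the deleted exons is not given in the sources used here, so these levels check nothing. *Cracd* and *Rbl2* were not analysed here.

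Across the 18 points of 9 classes in both sections, panel genes among the most like the mean profile of the 5 genes were *Ezh2* (Pearson r = 0.97), *E2f1* (0.89), *Upk3a* (0.83) and *Hif1a* (0.80), on log2(CPM + 10). Without the NE-like points, r was 0.94, 0.81, 0.68 and 0.77 over 16 points. Between the members, r was 0.96 to 0.99 for mitotic pairs and 0.88 to 0.91 for pairs with *Pclaf*. The points share sections and libraries, and r is a description.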

How the data were processed

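Transcripts of 479 genes were measured with Xenium In Situ in 1 lung section of RPR2 and 1 of CRPR2. The authors deposited raw counts, the decoded transcripts per gene and segmented cell, with no normalization. Cells were segmented by nuclear expansion, and Xenium Explorer and Seurat 4.4.0 are named in the submitters' processing notes or the methods. The version of the onboard software is not given in the sources used here. Segmentation by nuclear expansion can place transcripts of a neighbor into a cell, no doublet caller was run, and no cell positions were used here.

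Cells with at least 20 transcripts were kept (152915 in RPR2 and 340609 in CRPR2). Both sections were clustered together on log-normalized counts without the cell cycle genes (30 principal components, 15 nearest neighbors, Leiden resolution 2, 2 iterations, seed 1; scikit-learn 1.9.0, igraph 0.11.9). Naming a cluster needed at least 3 markers of a class raised at least 2-fold. No other class could have a larger share of its markers raised. This rule covered only classes with at least 3 markers on the panel and a marker among the leading genes of the cluster. The cluster could hold at most 20000 CPM of NE markers unless it was NE-like. Its 10 leading genes had to favor the class too. A cluster stayed unnamed if another class tied there, or if markers of other classes outnumbered those of the class. These naming rules were set after seeing the clusters. Clusters 10 and 13 had 12 of 13 NE markers raised but 0 and 2 among their leading genes, and stayed unnamed. They held 1007 and 762 cells in RPR2, and 12378 and 11421 in CRPR2. The members and lists were chosen with earlier results of these data known.

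Levels are summed counts per 1000000 gene transcripts (CPM) with exact Poisson intervals, shares are taken after thinning each cell to 50 transcripts with exact Clopper-Pearson intervals, and ratios of levels have exact conditional intervals, all at 95%. They cover counting error only. There is 1 section per genotype, so no test was made. Differences between genotypes are therefore differences between these sections. At least 1.2-fold (NE-like cells) or 2-fold (other comparisons) was counted against all genes, with 10 CPM added to both levels. Named genes were the 5 proliferation genes, every other panel gene of the cell cycle list, and the 5 panel genes with the profile most like their mean over classes with at least 200 cells, of which 1 is not reported here. Alternatives were other thinning depths, resolutions 1 and 4, a gate on marker transcripts per cell (at least 3 and at least 2-fold over every other class), cells with at least 50 transcripts, means of CPM per cell, at least 2 transcripts for a positive cell, and cells with 0 NE transcripts. The interval calculations for ratios and shares were tested on simulated counts, and the thinning step was not. Promoter letters were read from RefSeq (GRCm38.p6).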

Additional observations from a re-analysis of the deposited data

How the results depend on the processing

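Of 1481 values recomputed under other settings for 253 results, 1 reversed, 779 moved beyond their counting interval and 701 did not. No paired analysis was possible because each genotype had 1 section. In NE-like cells, all 30 alternatives kept the CRPR2 over RPR2 differences above 0 (0.03 to 0.44 on the log2 scale). As a mean of CPM per cell, *Mki67* was at 0.36 and *Pclaf* at 0.087, and *Cenpf* was at 0.40 with the gate per cell. With the unnamed clusters that held NE transcripts counted as NE-like, an alternative chosen after seeing the data, *Cenpf* was at 0.39. The log2 *Mki67* level of NE-like over T cell-like cells in RPR2 was 2.06 at resolution 4, 2.29 with the gate and 1.46 with the unnamed clusters, and in CRPR2 it was 0.79, 0.88 and 0.50, and 0.81 as a mean per cell. Over all genes and classes, NE-like over another class moved by at most 2.58 (*Top2a* over mural-like cells in RPR2, at resolution 1) and kept its direction, and with the gate all 4 mitotic genes over secretory-like cells in CRPR2 moved by more than 2. No T cell-like class formed at resolution 1.

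Shares move with depth by construction. *Mki67* was seen in 21.6% of RPR2 and 26.6% of CRPR2 NE-like cells at 30 transcripts, in 49.1% and 59.4% at 100, in 45.1% and 54.3% without thinning, and in 10.5% and 13.5% as at least 2 transcripts. *Pclaf*-positive NE-like cells without a mitotic transcript were 47.0% and 45.0% at 30 transcripts, 18.7% and 15.0% at 100, and 19.6% and 16.5% without thinning, and in CRPR2 31.7% at resolution 1 and 34.1% with the unnamed clusters. In endothelial-like cells they were 99.3% and 91.2% at 30, 97.8% and 82.9% at 100, 97.3% and 81.9% without thinning, and 97.2% and 79.9% with the gate. The log2 median ratio to the product for mitotic pairs (0.94 in RPR2 and 0.73 in CRPR2) was 1.06 and 0.85 at 30 transcripts, 0.67 and 0.49 at 100, 0.80 and 0.59 without thinning, 2.05 and 1.76 as at least 2 transcripts, and 1.05 and 0.82 with the unnamed clusters. For pairs with *Pclaf* (0.49 and 0.30) it was 0.98 and 0.65 as at least 2 transcripts, and in CRPR2 0.22 at 100, 0.34 without thinning and 0.34 with the unnamed clusters. The log2 *Pclaf* to mitotic ratio of endothelial-like minus NE-like cells was 3.78 in RPR2 and 1.37 in CRPR2 at resolution 1, 3.81 and 1.41 at resolution 4, 3.40 and 1.19 with the gate, and 1.64 in CRPR2 with 0 NE transcripts. Over all classes this ratio moved by at most 1.15 (secretory-like in CRPR2, with the gate). That of AT2-like minus NE-like cells in CRPR2 was 0.01, and -0.036 with the unnamed clusters. In the other classes, the 4 mitotic genes stayed above 0 in CRPR2 over RPR2 under each alternative (0.03 to 3.79), lowest for *Cenpf* in macrophage-like cells at resolution 1, and *Pclaf* did so too (0.09 to 1.59). The causes were not tested.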
